A study of Mus musculus with 16 samples.

Results

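Glul, Slc1a2, Rhbg, Oat, Lgr5, Axin2, Tbx3, Rnf43, Znrf3 and Sp5 are 10 mouse genes that serve the handling of glutamine and ammonia around the central vein of the liver or read out Wnt signalling in the same cells. They were taken by symbol from the gene count table, where each had 1 row among 55401 genes. Their levels were followed in 16 RNA-seq libraries of whole mouse liver, 2 in each of 8 groups, from a study of choline during the resolution of liver fibrosis. The TAA group had drunk water with 300 mg/L thioacetamide, a compound that injures hepatocytes and causes fibrosis, for 8 weeks. The 3 choline groups had the same 8 weeks of thioacetamide and then 1, 2 or 4 weeks of choline chloride at 3.5 g/L in drinking water. The 3 groups without choline had the same thioacetamide and recovered for 1, 2 or 4 weeks. The control group had no thioacetamide. All 16 livers are labelled wild type. The comparisons with TAA livers all use the same 2 TAA libraries, and those with control livers the same 2 control libraries. Whether both libraries of a group stem from different mice is not stated in the labels, so a p-value here reflects the spread between the libraries at hand, and that spread may be technical.

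In the healthy liver, endothelial cells of the central vein secrete Wnt ligands and R-spondin, which keep beta-catenin active in the hepatocytes next to the vein. Those hepatocytes take up the ammonia that the urea cycle upstream has left and fix it into glutamine with glutamine synthetase, the product of Glul. Lgr5 is a receptor for R-spondins and amplifies the signal, Axin2, Rnf43 and Znrf3 are induced by it and feed back to limit it, and Tbx3 and Sp5 are transcription factors among its known targets.

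By the positions in the deposited table, on the GRCm38 build, the genes lie on 7 chromosomes, all as protein-coding genes. Glul was at chr1:153899944-153909723, Slc1a2 at chr2:102658659-102790784, Sp5 at chr2:70474923-70477729, Tbx3 at chr5:119670669-119684561, Axin2 at chr11:108920349-108950783 and Rnf43 at chr11:87663087-87735538, all on the plus strand. Rhbg was at chr3:88242874-88254709, Oat at chr7:132557478-132576398, Lgr5 at chr10:115450311-115587780 and Znrf3 at chr11:5276324-5444847, all on the minus strand. In the GENCODE M21 annotation of that build, Oat lay inside the span of Fgfr2 on the same strand, to which the table gives 20993 counts in all 16 libraries together, and 3936 bases of Rnf43 were shared with 1110028F11Rik on the same strand, with 435 counts. Further, 11330 bases of Rhbg were shared with the predicted gene Gm38392 on the same strand, which had 19.7 counts in all 16 libraries together. Tbx3 shared 697 bases with its antisense gene Tbx3os1, which had 1102 counts in all. The libraries were strand-specific per the labels, but no source used here gives the strand setting of the counting. Whether reads of Tbx3 and Tbx3os1 in that stretch were kept apart is thus not known.

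Promoter sequences (250 bases before to 50 after the RefSeq start site, GRCm38.p6) were held for 6 of the 10 genes. Those of Rhbg, Lgr5, Tbx3 and Znrf3 were not used here. The promoters of Glul, Slc1a2 and Oat are shown because these genes were among those that moved most, that of Axin2 because it moved the other way, and that of Sp5 because it holds the motif searched for. Capitals mark the TCF/LEF core ATCAAAG or its reverse complement CTTTGAT, the letters bound by the DNA-binding partners of beta-catenin. The sequences run 5′ to 3′ on the strand of the gene, at chr1:153899679-153899978 for Glul, chr2:102706188-102706487 for Slc1a2, chr7:132576349-132576648 for Oat, chr11:108920099-108920398 for Axin2 and chr2:70474673-70474972 for Sp5.
Glul: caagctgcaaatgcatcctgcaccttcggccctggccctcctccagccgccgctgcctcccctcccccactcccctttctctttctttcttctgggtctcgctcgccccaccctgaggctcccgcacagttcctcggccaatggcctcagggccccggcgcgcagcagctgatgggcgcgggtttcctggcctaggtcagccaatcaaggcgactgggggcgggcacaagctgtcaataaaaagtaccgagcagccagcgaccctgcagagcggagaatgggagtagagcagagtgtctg
Slc1a2: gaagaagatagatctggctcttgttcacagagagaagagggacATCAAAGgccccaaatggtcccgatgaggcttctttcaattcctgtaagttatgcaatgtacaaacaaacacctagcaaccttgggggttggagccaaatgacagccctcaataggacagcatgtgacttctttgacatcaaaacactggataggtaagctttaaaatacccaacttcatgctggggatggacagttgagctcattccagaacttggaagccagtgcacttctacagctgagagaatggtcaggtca
Oat: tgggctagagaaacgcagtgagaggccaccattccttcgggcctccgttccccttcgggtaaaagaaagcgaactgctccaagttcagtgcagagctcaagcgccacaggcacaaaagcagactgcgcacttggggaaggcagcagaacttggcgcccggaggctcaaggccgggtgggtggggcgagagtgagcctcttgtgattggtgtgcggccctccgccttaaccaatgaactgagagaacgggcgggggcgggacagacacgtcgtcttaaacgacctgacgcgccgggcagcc
Axin2: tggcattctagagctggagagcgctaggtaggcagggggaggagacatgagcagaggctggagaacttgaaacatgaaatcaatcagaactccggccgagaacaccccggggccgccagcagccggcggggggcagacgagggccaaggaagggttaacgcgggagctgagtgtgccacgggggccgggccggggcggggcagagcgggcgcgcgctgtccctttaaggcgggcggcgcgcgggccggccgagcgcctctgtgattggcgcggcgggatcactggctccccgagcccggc
Sp5: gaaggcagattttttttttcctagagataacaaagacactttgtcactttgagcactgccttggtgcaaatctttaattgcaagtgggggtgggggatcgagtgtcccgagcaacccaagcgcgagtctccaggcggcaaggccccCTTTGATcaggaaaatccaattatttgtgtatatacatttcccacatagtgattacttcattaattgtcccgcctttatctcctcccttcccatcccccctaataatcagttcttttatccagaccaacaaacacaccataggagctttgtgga
ATCAAAG stood in the Slc1a2 promoter at position -207 from the start site, and as CTTTGAT in the Sp5 promoter at position -104. This RefSeq start of Slc1a2 lies 47779 bases inside the annotated gene. Neither ATCAAAG nor TTCAAAG, searched on both strands, was found in the windows of Glul, Oat, Axin2 or Rnf43. Among 32851 mouse promoters of the same length, 3.73% held ATCAAAG and 5.14% held TTCAAAG on either strand, and 8.65% held at least 1 of them. A match is a run of letters and was not tested as a binding site.

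The libraries held 23069490 to 33645258 counts in total, and 18872 to 22937 genes had at least 1. The nuclear RNA Malat1 set 2 libraries apart, with 1019 CPM in TAA replicate 1 and 146 CPM in control replicate 1, against 5230 to 6799 CPM in the other 14. Between 5.82% and 15.9% of a library's counts, and 37.8% to 60.5% of its TPM, belonged to 7SL RNA, a small RNA of the protein export machinery. Hepatocyte markers summed to between 65070 and 101900 CPM in each library, so the liver label was met. All 10 genes passed the filter on low counts with 17292 genes tested. Levels are given as CPM, the count of a gene relative to its library's total after TMM scaling between libraries, and a gene is said to have changed where edgeR's quasi-likelihood test gave an adjusted p under 0.05 over those 17292 genes.

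**Figure D1:**
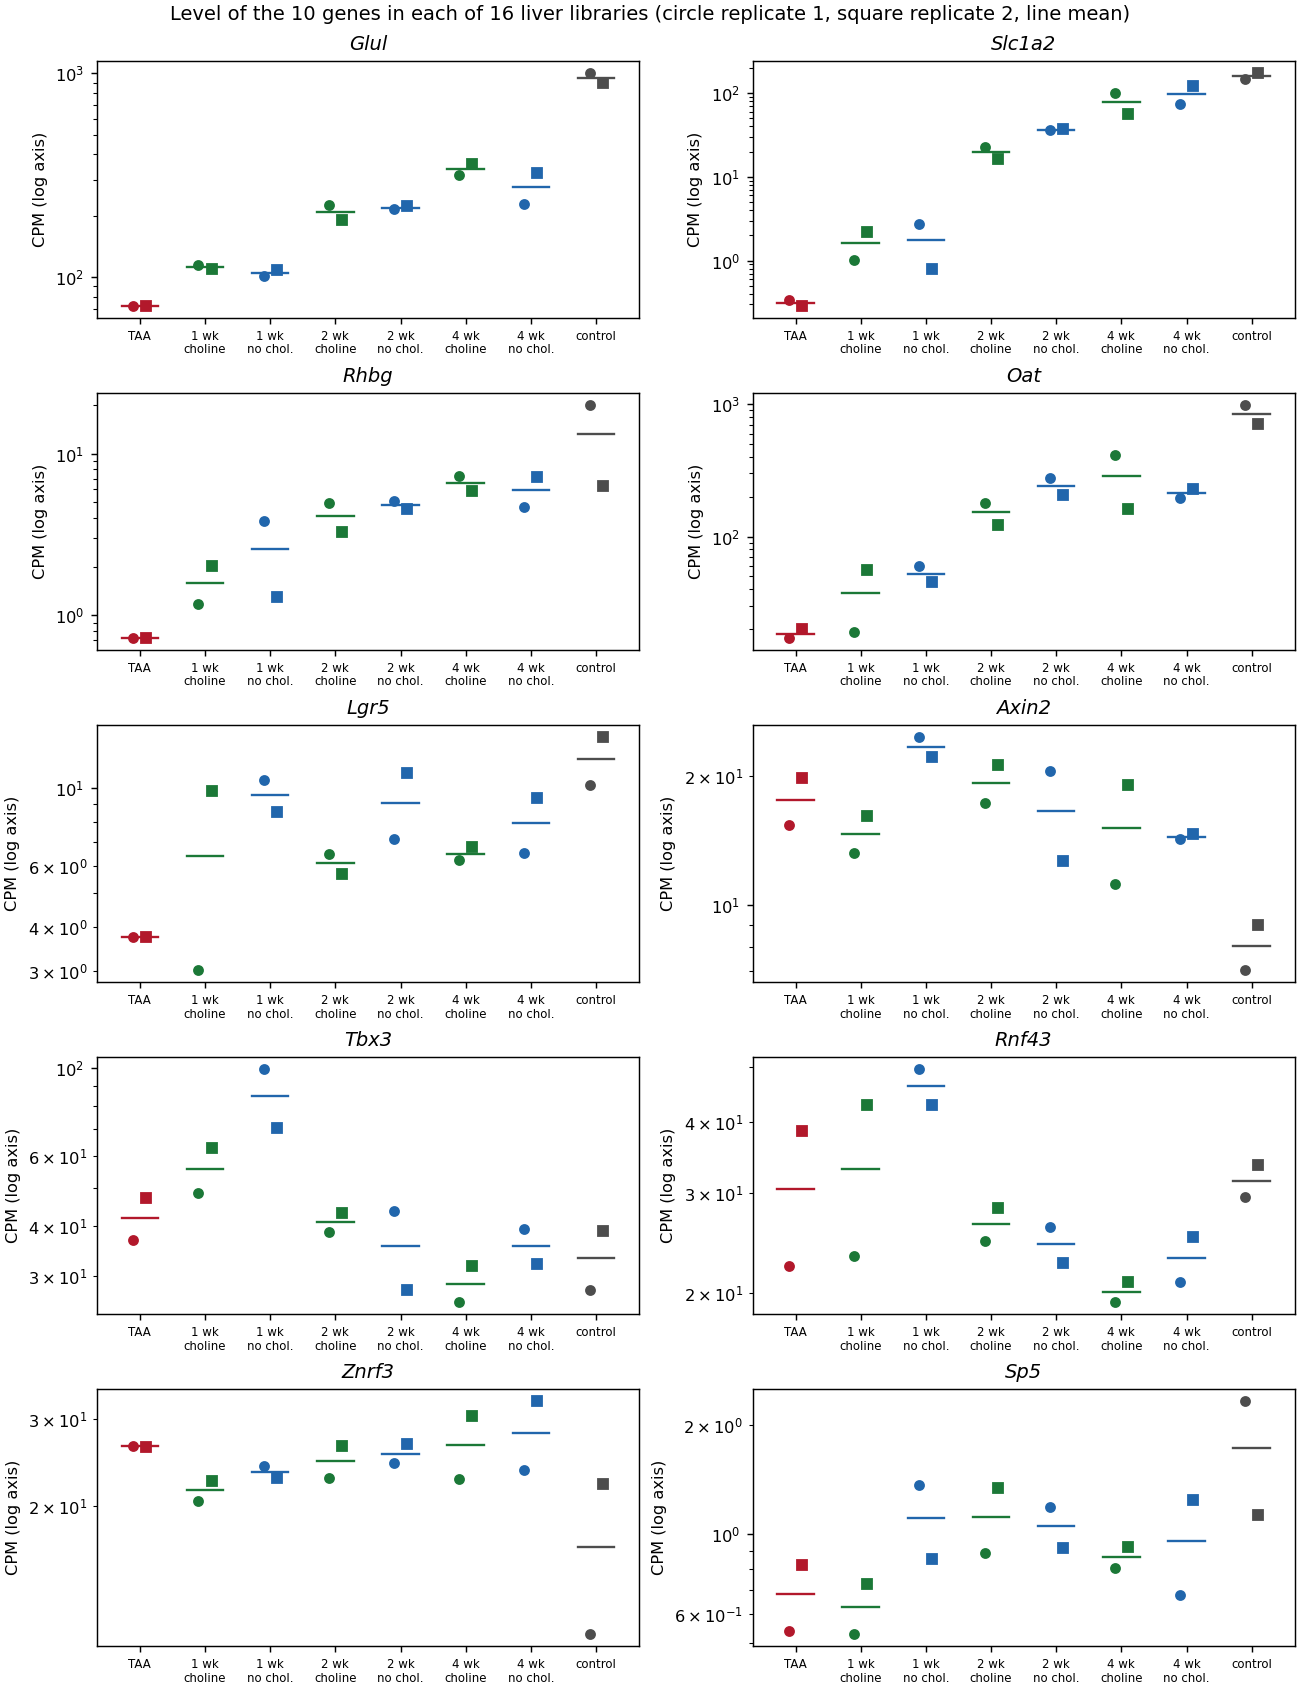
CPM (log axis, own scale in each panel) of the 10 genes in each library of the TAA, recovery and control groups, with circles for replicate 1, squares for replicate 2 and lines for the means. Glul, Slc1a2 and Oat have both TAA libraries far below both control libraries, with most recovery libraries in between, while Axin2 has all 14 other libraries above the control libraries.

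The 10 genes did not move as 1 group after thioacetamide. Relative to control livers 6 of the 10 changed: Glul, Slc1a2, Rhbg, Oat and Lgr5 were lower and Axin2 was higher, while Tbx3, Rnf43, Znrf3 and Sp5 did not pass the test. Over all 17292 genes 21% changed, 11% lower and 10% higher. In 8 of the 10 the TAA and control libraries did not overlap, 6 lower and 2 higher, beside 45.9% of all genes, 20.3% lower and 25.6% higher. The median log2 change of the 10 genes was -1.51, beside 0.03 over all genes tested. In bulk RNA, fewer pericentral hepatocytes and less of these RNAs per cell cannot be told apart.

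The enzymes and transporters of glutamine, glutamate and ammonia fell most. Glul, glutamine synthetase, was at 72.2 and 71.9 CPM in TAA livers, against 1007 and 897.5 CPM in control livers. This was a 13.2-fold lower level, with a log2 change of -3.72 ± 0.20 (SE, adjusted p = 6.0e-06). Slc1a2, the glutamate transporter GLT-1, was at 0.334 and 0.284 CPM in TAA livers, from 13 and 9 counts, against 147 and 174 CPM in control livers. The groups were far apart, with a log2 change of -8.99 ± 0.67 (adjusted p = 5.74e-05). Slc1a2 had the lowest log2 change of the 10 genes, 508-fold lower in the fit, and its TAA level rests on the few counts given.

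Oat, ornithine aminotransferase, which turns ornithine into a precursor of glutamate and proline, was at 17.0 and 19.9 CPM in TAA livers, against 993 and 713 CPM in control livers. Its log2 change was -5.53 ± 0.58 (adjusted p = 0.000214), a 46.2-fold lower level. Rhbg, an ammonium transporter of the Rh family, was at 0.720 and 0.727 CPM in TAA livers, from 28 and 23 counts, against 20.0 and 6.26 CPM in control livers. The control libraries of Rhbg stood far apart, yet both lay above both TAA libraries. Its log2 change was -4.17 ± 0.63 (adjusted p = 0.00121), and -3.10 (adjusted p = 0.0200) without both libraries low in Malat1.

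Among the genes of the Wnt pathway itself the directions differed. Lgr5, the R-spondin receptor, was at 3.75 and 3.76 CPM in TAA livers, against 10.2 and 13.96 CPM in control livers, a log2 change of -1.69 ± 0.43 (adjusted p = 0.0172). In the deposited TPM, which are taken over totals of which 7SL RNA holds the share given above, Lgr5 stood at 0.88 and 0.80 TPM in TAA livers and 0.80 and 1.86 TPM in control livers, so that the groups overlapped on that scale. Axin2, a scaffold of the complex that degrades beta-catenin, was at 15.4 and 19.8 CPM in TAA livers, against 7.04 and 9.001 CPM in control livers. It was 2.19-fold higher, with a log2 change of 1.13 ± 0.28 (adjusted p = 0.0158). Without both libraries low in Malat1, Lgr5 changed by -1.90 (adjusted p = 0.0984) and Axin2 by 1.13 (adjusted p = 0.0865), so both lost the call at values of like size. The Lgr5 call was also lost without either TAA library, and with library totals in place of TMM (-1.14), and that of Axin2 without control replicate 1 or TAA replicate 2, at log2 changes of -1.90 to -1.45 for Lgr5 and 0.95 to 1.31 for Axin2 over all single omissions.

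Rnf43 and Znrf3 are membrane ubiquitin ligases that remove Wnt receptors from the cell surface. Rnf43 was at 22.3 and 38.7 CPM in TAA livers, within which both control libraries fell at 29.5 and 33.6 CPM (log2 change -0.05 ± 0.28, adjusted p = 0.923). Znrf3 was at 26.5 and 26.4 CPM in TAA livers, against 11.1 and 22.1 CPM in control livers, and its log2 change of 0.67 ± 0.27 did not pass (adjusted p = 0.102). Without control replicate 2 alone it was 1.25 (adjusted p = 0.000658), and it was also called with library totals (1.17), with no filter on low counts (0.68) and with the replicate block (0.71, adjusted p = 0.0426), while without both libraries low in Malat1 it was 0.25 (adjusted p = 0.513). The value of Znrf3 thus moved with the control library that was kept, and its call with the scaling, filter and block.

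Tbx3, a T-box factor, was at 36.9 and 47.0 CPM in TAA livers and 27.6 and 38.9 CPM in control livers. In CPM the groups overlapped (log2 change 0.34 ± 0.27, adjusted p = 0.407). In TPM they did not, at 7.87 and 8.11 in TAA livers and 2.03 and 5.34 in control livers. Sp5, a zinc finger factor of the Sp family, was at 0.540 and 0.822 CPM in TAA livers, against 2.33 and 1.13 CPM in control livers, from 14 to 51 counts a library in the whole series. Its log2 change of -1.34 ± 0.48 did not pass (adjusted p = 0.0699), and over single omissions the value was -1.79 to -0.74, with a call without control replicate 2. Without both libraries low in Malat1 it was -0.46. In TPM, Sp5 was at 0.28 and 0.33 in TAA livers and 0.41 and 0.33 in control livers, so the groups met on that scale. Fitted on the 4 TAA and control libraries alone, 2 of the 10 genes passed, Slc1a2 and Oat, among 16 genes in all.

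**Figure D2:**
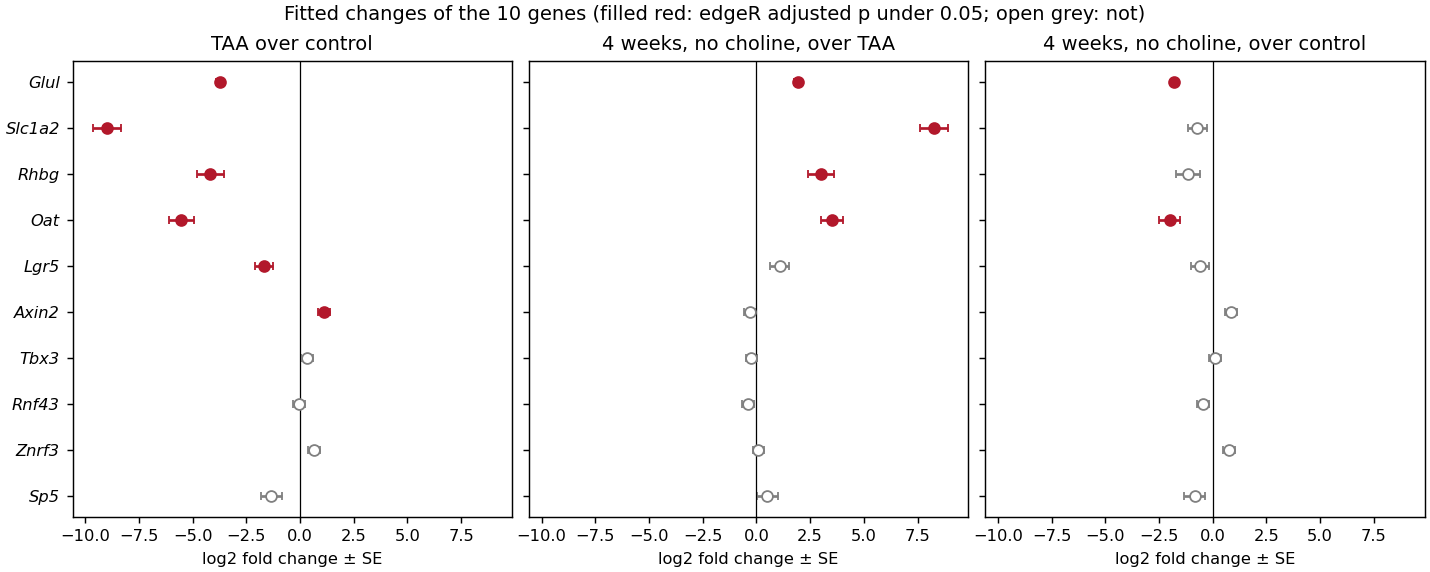
Log2 fold change ± SE of the 10 genes in 3 comparisons, with filled red points for an adjusted p under 0.05 in edgeR's test. Glul, Slc1a2, Rhbg and Oat lie furthest left for TAA over control and furthest right for 4 weeks without choline over TAA, and Glul and Oat are still below control at 4 weeks.

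Per length, the order of the genes differed between TAA and control livers. In TPM, Glul was at 27.7 and 23.9 in TAA livers and 130 and 199 in control livers. Oat was at 8.51 and 7.80 TPM in TAA livers and 170 and 207 TPM in control livers. Rnf43, at 7.14 and 10.7 TPM, and Tbx3, at 7.87 and 8.11 TPM, thus stood at the level of Oat in TAA livers. In control livers they were at 2.77 and 8.17 TPM and at 2.03 and 5.34 TPM, far below Oat. Slc1a2 was at 0.11 and 0.06 TPM in TAA livers and 16.5 and 23.7 TPM in control livers.

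Cell type markers moved beside these changes, and their part in the results was not tested. The counts of markers called stand beside 11% of all genes lower and 10% higher. The 7 hepatocyte markers analysed summed to 78870 and 65070 CPM in TAA livers, against 101900 and 82770 CPM in control livers, and 2 of them were lower. As a share of all counts, without scaling, the order was reversed, at 9.12% and 7.82% in TAA livers and 6.87% and 7.54% in control livers. The 8 endothelial markers were Pecam1, Cdh5, Kdr, Stab2, Lyve1, Clec4g, Oit3 and Fcgr2b, which do not single out the central vein. They summed to 214 and 233 CPM in TAA livers, against 337 and 371 CPM in control livers, with 5 of 8 lower. Their unscaled share of counts overlapped, at 0.0248% and 0.028% in TAA livers and 0.0227% and 0.0338% in control livers. The 8 cholangiocyte markers summed to 422 and 106 CPM in TAA livers, against 45.7 and 41.8 CPM in control livers, with 5 of 7 tested higher and 1 at 0 in each control library. The 8 markers of stellate cells and myofibroblasts summed to 476 and 362 CPM in TAA livers, against 246 and 209 CPM in control livers, with 2 of 8 higher. The 8 macrophage markers summed to 134 and 179 CPM in TAA livers and 208 and 129 CPM in control livers, with 3 of 8 higher. Their unscaled share was higher, at 0.0154% and 0.0215% in TAA livers and 0.014% and 0.0118% in control livers. Cholangiocyte and stellate cell markers were higher in TAA livers with and without scaling. Markers of T cells, B cells and neutrophils each summed to under 6 CPM in every library.

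During recovery without choline Glul, Slc1a2, Rhbg and Oat were higher than in TAA livers from 2 weeks on. None of the other 6 genes passed edgeR's test against TAA livers. Oat did not rise further after 2 weeks without choline, with means of 240.8 CPM then and 211.8 CPM at 4 weeks. No gene of the 10 passed the test at 1 week without choline relative to TAA, where 3.75% of all genes changed, 1.97% upward. All 10 had TAA and 1-week libraries that did not overlap, with Znrf3 lower and the others higher. Over all genes it was 55.2%, 27.6% higher and 27.6% lower. At 2 and at 4 weeks Glul, Slc1a2, Rhbg and Oat were higher than in TAA livers and none of the 10 was lower, while 11% and 14.9% of all genes changed, 5.13% and 6.47% upward and, at 4 weeks, 8.39% downward. In 6 of the 10 genes the libraries did not overlap at 2 weeks, all 6 higher, and in 6 at 4 weeks, 5 higher and Axin2 lower, beside 61.5% (28.9% higher) and 62.7% of all genes. At 1 week 6 of the 10 had an unadjusted p under 0.05, beside 19.4% of all genes, and DESeq2 called 6, beside 8.47%.

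Glul was at 115 and 109 CPM after 1 week with choline, 227 and 190 CPM after 2 and 317 and 359 CPM after 4. Without choline it was at 101 and 108 CPM after 1 week, 215 and 222.5 CPM after 2 and 229 and 324 CPM after 4. No recovery library reached the control libraries, and each week's libraries lay above those of the week before. Relative to TAA livers, Glul without choline changed by 0.54 ± 0.18 at 1 week (adjusted p = 0.121), 1.60 ± 0.18 at 2 (adjusted p = 0.000824) and 1.94 ± 0.18 at 4 (adjusted p = 0.000191) on the log2 scale. At 4 weeks without choline its mean was still 29.1% of the control mean, a log2 change of -1.78 ± 0.18 against control (adjusted p = 0.000978).

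Slc1a2 was at 1.02 and 2.22 CPM after 1 week with choline, 22.95 and 16.3 CPM after 2 and 99.7 and 56.6 CPM after 4. Without choline it was at 2.76 and 0.792 CPM after 1 week, 36.1 and 36.9 CPM after 2 and 74.1 and 122 CPM after 4. Its mean was 0.193% of the control mean in TAA livers, the lowest of the 10 genes, and 61.02% at 4 weeks without choline. Relative to TAA livers the log2 change without choline was 2.48 ± 0.65 at 1 week (adjusted p = 0.0596), 6.85 ± 0.63 at 2 (adjusted p = 0.000517) and 8.28 ± 0.65 at 4 (adjusted p = 9.35e-05). The 1-week value was 1.33 to 3.13 with single libraries left out, and it was called without replicate 2 of the 1-week group (adjusted p = 0.0297), with no filter and by DESeq2. Against control it was -0.71 ± 0.44 at 4 weeks (adjusted p = 0.245), with a 95% interval of -1.67 to 0.24, which holds 0 as well as lower levels.

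Rhbg was at 1.17 and 2.01 CPM after 1 week with choline, 4.97 and 3.26 CPM after 2 and 7.32 and 5.88 CPM after 4. Without choline it was at 3.81 and 1.29 CPM after 1 week, 5.10 and 4.57 CPM after 2 and 4.66 and 7.16 CPM after 4. Its 4-week libraries overlapped the lower control library, at 6.26 CPM. Against TAA livers it was 6.65-fold higher at 2 weeks without choline (adjusted p = 0.0160) and 8.14-fold higher at 4 (adjusted p = 0.00764). The call at 2 weeks was lost without any 1 of its 4 libraries, and that at 4 weeks without TAA replicate 1 or replicate 2 of the 4-week group, at log2 changes of 2.66 to 2.81 and 2.68 to 3.30 over single omissions.

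Oat was at 19.1 and 56.3 CPM after 1 week with choline, 181 and 123 CPM after 2 and 416 and 162 CPM after 4. Without choline it was at 59.7 and 45.1 CPM after 1 week, 277 and 205 CPM after 2 and 195 and 228 CPM after 4. At 4 weeks the choline libraries stood on either side of those without choline. Against TAA livers Oat was 13.1-fold higher at 2 weeks without choline (adjusted p = 0.00241) and 11.5-fold higher at 4 (adjusted p = 0.00177). At 4 weeks without choline its mean was 24.8% of the control mean, with a log2 change of -2.01 ± 0.50 against control (adjusted p = 0.0226). That call was lost without control replicate 1 or without either 4-week library, at log2 changes of -2.24 to -1.76.

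Ordered by group means, Glul was highest in control, then after 4 weeks with and without choline, 2 weeks without and with, 1 week with and without, and lowest in TAA. In that order the 4-week groups overlapped each other, as did the 2-week groups, and no other neighbours did. For Slc1a2 the order was control, 4 weeks without and with choline, 2 weeks without and with, 1 week without and with, and TAA, and only the arms at 4 weeks and at 1 week overlapped. For Oat the 4-week groups and the 2-week group without choline overlapped in a row, and the 1-week groups and TAA likewise. For Rhbg all neighbours overlapped except TAA and the 1-week choline group above it. Axin2 was highest at 1 week without choline and lowest in control, neither of which overlapped its neighbour, and all groups between them overlapped their neighbours. Tbx3 was highest at 1 week without choline, then at 1 week with choline, without overlap down to TAA, and the lower groups overlapped in a row.

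**Figure D3:**
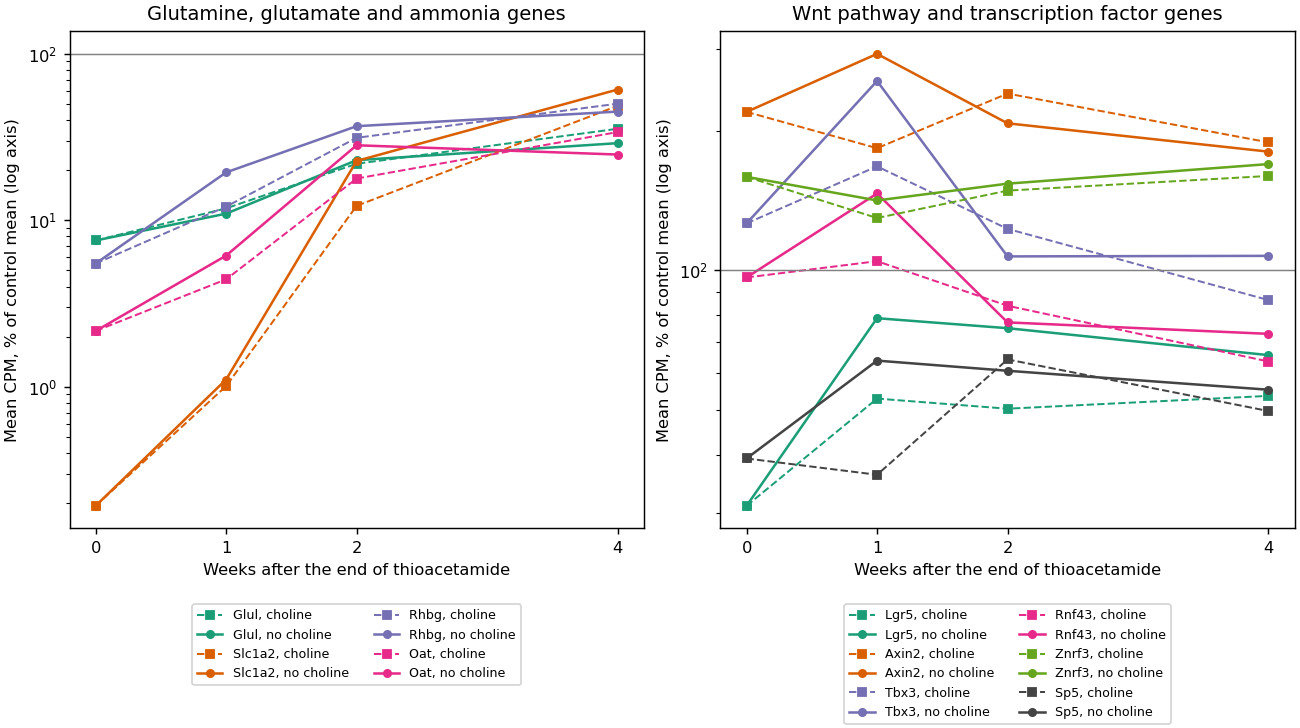
Group means as a percentage of the control mean (log axis) at the end of thioacetamide (week 0, the TAA group) and after 1, 2 and 4 weeks, with dashed lines for choline and solid lines for no choline. Without choline, Slc1a2 is at 0.193% at week 0 and 61.02% at week 4, Glul is at 7.57% and 29.1%, and Axin2 is above 100% at each time.

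With both arms averaged, the step from week 1 to week 2 was called for Glul (log2 change 0.98 ± 0.13, adjusted p = 0.0197) and Slc1a2 (3.98 ± 0.37, adjusted p = 0.00344). In that step 10 of 17292 genes were called, 0.0578% (0.0405% higher). From week 2 to week 4 Slc1a2 was called as well (1.71 ± 0.32, adjusted p = 0.0382), where 0.509% of all genes changed (0.353% higher). Neither step was called for Oat or Rhbg, nor the later step for Glul (0.52 ± 0.13, adjusted p = 0.115). The Glul step was lost when any of the 8 libraries of weeks 1 and 2 was left out, with log2 changes of 0.91 to 1.04 over all 16 omissions. The later Slc1a2 step was likewise lost in 12 of 23 alternatives, with log2 changes of 1.48 to 1.88. The earlier Slc1a2 step kept its call in all 23.

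The Wnt pathway genes followed no common course. Lgr5 was at 3.02 and 9.78 CPM after 1 week with choline, 6.48 and 5.68 CPM after 2 and 6.21 and 6.76 CPM after 4. Without choline it was at 10.6 and 8.51 CPM after 1 week, 7.14 and 11 CPM after 2 and 6.49 and 9.38 CPM after 4. Every recovery library but 1 of the choline group at 1 week lay above both TAA libraries, yet none of the 3 changes without choline passed, at log2 1.34, 1.27 and 1.08 (adjusted p = 0.108, 0.0780 and 0.110). With values of like size, Lgr5 was called at each of the 3 times with no filter or without either library of the 1-week choline group, and by DESeq2 at 1 and 2 weeks. Axin2 was at 13.2 and 16.2 CPM after 1 week with choline, 17.4 and 21.2 CPM after 2 and 11.2 and 19.1 CPM after 4. Without choline it was at 24.8 and 22.2 CPM after 1 week, 20.6 and 12.7 CPM after 2 and 14.3 and 14.7 CPM after 4. All 12 recovery libraries lay above both control libraries for Axin2.

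Against control livers, Axin2 was 2.92-fold higher at 1 week without choline (adjusted p = 0.0267). At 2 and 4 weeks its log2 changes were 1.05 ± 0.28 (adjusted p = 0.0958) and 0.85 ± 0.28 (adjusted p = 0.0544). Tbx3 was at 48.4 and 63.0 CPM after 1 week with choline and 99.4 and 70.8 CPM without, against 27.6 and 38.9 CPM in control livers. At 1 week without choline it was 2.56-fold higher than in control livers (adjusted p = 0.0347). From 2 weeks on Tbx3 lay between 25.7 and 43.7 CPM in all 8 libraries, about the range of the TAA and control libraries.

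In all, 6 of the 10 genes differed from control at 1 week without choline, with Glul, Slc1a2, Rhbg and Oat lower and Axin2 and Tbx3 higher, where 4.26% of all genes changed, 2.35% lower and 1.9% higher. At 2 weeks it was Glul alone, which was lower, among 0.399% of all genes, 0.249% lower and 0.15% higher. At 4 weeks it was Glul and Oat, or 2 of 10, both lower, near the 19.5% of all genes called there, 12.2% lower and 7.33% higher. The 1-week calls of Oat and Axin2 were each lost without control replicate 1 or without either 1-week library, that of Tbx3 in 11 of 23 alternatives and that of Rhbg in 18 of 23. Without both libraries low in Malat1, Glul and Slc1a2 were called at 1 week and Glul alone at 2 and at 4 weeks.

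Rnf43, Znrf3 and Sp5 passed in none of the recovery comparisons. Rnf43 was highest at 1 week without choline, at 49.7 and 42.9 CPM, and lay between 19.3 and 28.3 CPM in the 8 libraries of weeks 2 and 4. Znrf3 lay between 20.5 and 32.6 CPM in the 12 recovery libraries, of which 11 were above the higher control library at 22.1 CPM. Sp5 lay between 0.528 and 1.362 CPM in the 12 recovery libraries, and overlapped the control libraries.

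Beside the recovery, endothelial markers came to 338 and 367 CPM at 4 weeks without choline, with 7 of 8 higher than in TAA livers. Over all genes 6.47% were higher and 8.39% lower in that comparison. The hepatocyte markers came to 77070 and 70030 CPM, with 2 of 7 higher. Stellate cell and myofibroblast markers came to 238 and 335 CPM, with 3 of 8 lower than in TAA livers, cholangiocyte markers to 92.7 and 155 CPM, with 1 of 7 lower, and neutrophil markers to 0.438 and 0.450 CPM, with 1 of 2 tested lower. Of the macrophage, T cell and B cell markers none passed. Their part in the return of the glutamine, glutamate and ammonia genes was not tested.

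Across all 16 libraries, the log2 CPM of Slc1a2 and Oat went together (Pearson r = 0.951), as did those of Glul and Oat (0.930) and Glul and Slc1a2 (0.900). Tbx3 and Rnf43 had r = 0.809, while Glul and Axin2 had r = -0.717. Without both libraries low in Malat1 these were 0.950, 0.900, 0.907, 0.863 and -0.651. The points are libraries of 8 groups and share the difference between groups, so the values are descriptions. Among 9400 other genes with a mean of at least 5 CPM, those most like Glul were Lhpp (r = 0.934), Mup17 (0.932), Oat (0.930), Mup11 (0.927) and Cyp2c37 (0.921). In the 14 libraries left after removing those low in Malat1 their r was 0.905, 0.903, 0.900, 0.892 and 0.867, and their ranks were 4, 5, 6, 9 and 23, so other genes stood above them. Mup17 and Mup11 belong to a family of near-identical genes whose reads are hard to assign, so their values are uncertain.

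Choline during recovery changed none of the 10 genes by edgeR's test at 1, 2 or 4 weeks or on average over the 3 weeks. DESeq2 also called 0 of the 10 in each of these. Beside this stood 0.0116%, 0% and 0.567% of all genes at 1, 2 and 4 weeks and 0.237% on average. In the average, DESeq2 gave no adjusted p to 1 of the 10. The same held for 4023 of all genes there and for 2682 at 4 weeks. Over all genes choline changed 0%, 0% and 0.052% at 1, 2 and 4 weeks and 0.0173% on average, and 0% differed in its effect between weeks. On average over weeks, the log2 change of Glul with choline was 0.11 with a 95% interval of -0.12 to 0.33. That of Slc1a2 was -0.44 (-1.04 to 0.16), that of Oat -0.23 (-0.84 to 0.38) and that of Rhbg -0.25 (-0.95 to 0.45). Of the Wnt pathway genes, Lgr5 had -0.48 (-1.01 to 0.05), Axin2 -0.13 (-0.48 to 0.22), Tbx3 -0.24 (-0.58 to 0.09), Rnf43 -0.19 (-0.55 to 0.17), Znrf3 -0.09 (-0.43 to 0.25) and Sp5 -0.29 (-0.91 to 0.32). The intervals leave room for a change of either sign in each gene, narrowest for Glul and widest for Rhbg.

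At 1 week 9 of the 10 estimates were below 0, all but that of Glul. The median of the 10 was -0.53, beside -0.006 over all genes. In 5 of the 10 the groups did not overlap, with Glul higher and Axin2, Tbx3, Znrf3 and Sp5 lower. Over all genes it was 31.3%, 15.3% higher and 16% lower. Axin2 (log2 change -0.68 ± 0.28) and Tbx3 (-0.61 ± 0.27) had unadjusted p of 0.0311 and 0.0403 there, and adjusted p of 1 over all genes, of which 0.891% had an unadjusted p under 0.05. At 2 weeks Slc1a2 was at 22.95 and 16.3 CPM with choline and 36.1 and 36.9 CPM without (log2 change -0.90, interval -1.87 to 0.08). At 2 and 4 weeks 0 of the 10 had an unadjusted p under 0.05, beside 1.16% and 5.88% of all genes, and 3 and 2 of them had groups that did not overlap, beside 37% and 42.8% of all genes.

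**Figure D4:**
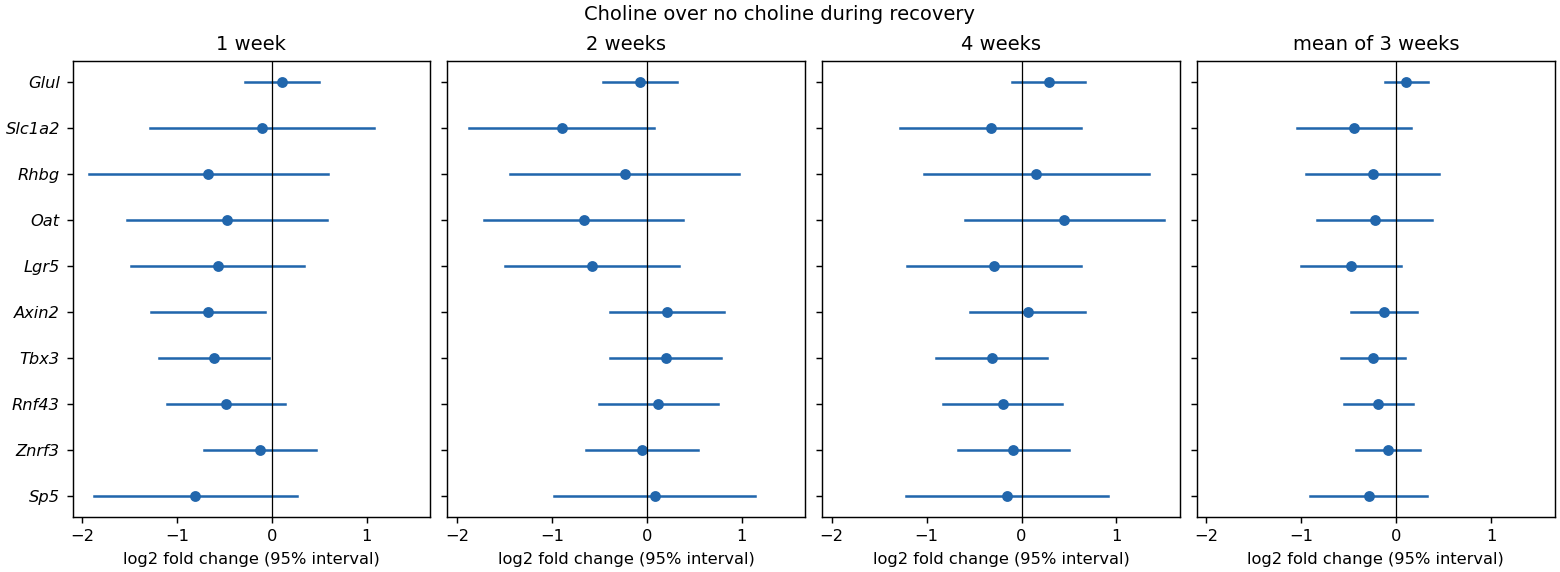
Log2 fold change, choline over no choline, with its 95% interval for the 10 genes at 1, 2 and 4 weeks and as the mean of the 3 weeks. The mean for Glul is 0.11 and its interval is the narrowest, and the intervals of all 10 means include 0.

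Other genes of the pathway and of its pericentral programme were read from lists. Of 26 genes in a list of other Wnt-dependent pericentral genes, 14 were lower and 4 higher in TAA livers than in control livers. The median log2 change was -1.01, beside 0.03 over all genes tested. The list also holds general Wnt pathway genes, among them Axin1, Tcf7, Lef1, Apcdd1 and Tnfrsf19. The 4 higher were Gstm3, Tcf7 (log2 change 1.58), Tnfrsf19 (1.53) and Aldh3a2 (0.69). Over all genes 11% were lower and 10% higher. Without both libraries low in Malat1, 12 were lower and 3 higher. Several genes stand in this list and in another, namely Tcf7, Lef1, Axin1, Notum, Nkd1 and Apcdd1, and Gls2, Ass1 and Cps1 stand in both the glutamine and the periportal list described further on, so the counts are not separate. Cyp2e1, an ethanol- and drug-metabolising cytochrome, was at 826 and 650 CPM in TAA livers, against 5821 and 3598 CPM in control livers (log2 change -2.67 ± 0.27, adjusted p = 0.000188). The others named by smallest p were lower too, Avpr1a by -2.28, Lhpp by -4.21 and Cyp27a1 by -1.36 on the log2 scale. Gstm3, a glutathione transferase of the same list, was at 687 and 457 CPM in TAA livers, against 71.8 and 76.5 CPM in control livers (log2 change 2.95 ± 0.40). At 4 weeks without choline 8 of the 26 were higher and 3 lower than in TAA livers, beside 6.47% and 8.39% of all genes. Cyp2e1 was at 3572 and 3716 CPM then, 77.4% of its control mean, and Gstm3 was at 43.9 and 61.2 CPM.

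Of 22 Wnt and R-spondin ligands and secretion genes, 12 were tested, and in TAA livers Wnt4 was higher and Porcn, the enzyme that attaches the lipid of Wnt ligands, was lower than in control livers. Wnt4 was at 6.55 and 5.66 CPM in TAA livers, against 1.37 and 1.54 CPM in control livers (log2 change 2.06 ± 0.36, adjusted p = 0.00265). Porcn was at 1.16 and 1.23 CPM in TAA livers, against 2.15 and 3.01 CPM in control livers (-1.11 ± 0.29, adjusted p = 0.0195). Both went the other way at 4 weeks without choline relative to TAA, Porcn by 1.61 (adjusted p = 0.00462) and Wnt4 by -1.22 (adjusted p = 0.0365). Wnt2, a central vein ligand, was at 0.951 and 2.72 CPM in TAA livers, against 3.75 and 3.66 CPM in control livers, and did not pass (-1.02, adjusted p = 0.0951), and neither did Wnt5a (0.96, adjusted p = 0.191). The median of the list was -0.38, and 2 of 12 called is no larger a share than the 21% over all genes.

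Values for 3 further genes are given that were picked with their values in view. Rspo3, the R-spondin of the central vein, was at 4.04 and 4.36 CPM in TAA livers and 3.75 and 4.28 CPM in control livers (log2 change 0.06, adjusted p = 0.886). Wnt9b, another Wnt of the central vein, was at 0.977 and 1.99 CPM in TAA livers and 1.78 and 3.12 CPM in control livers (-0.73, adjusted p = 0.349). Ctnnb1, beta-catenin itself, was at 243 and 202 CPM in TAA livers and 202 and 203 CPM in control livers (0.14, adjusted p = 0.516). None of the 3 passed.

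Of 14 Wnt receptor genes tested, Fzd3 and Fzd6 were higher and Fzd8 was lower in TAA livers than in control livers. Fzd8 was at 5.78 and 5.94 CPM in TAA livers, against 19.4 and 28.8 CPM in control livers (-2.04 ± 0.29, adjusted p = 0.000887). Of 20 genes of the beta-catenin core and its TCF partners 3 were higher and none lower. On the log2 scale these were Tcf7 by 1.58, Pygo1 by 2.704 and Tnks2 by 0.39. Pygo1 rests on a low level, at 2.16 and 0.727 CPM in TAA livers, against 0.274 and 0.171 CPM in control livers. Of 11 inhibitors tested, Dkk3 (1.85) and Frzb (1.61) were higher and Notum, a secreted enzyme that inactivates Wnt ligands, was lower (-0.88). Fzd7 (-0.77), Gsk3b (0.78) and Nkd1 (-0.78), next by p in these lists, did not pass (adjusted p = 0.0554, 0.0522 and 0.0526). The medians of the receptors, core and inhibitors were 0.08, 0.32 and 0.11. The 3 of 14, 3 of 20 and 3 of 11 genes called in them stand beside 21% of all genes, so these are shares near the background. At 4 weeks without choline relative to TAA, Tcf7 was lower (-1.57). Of the 14 receptors 0 passed, with 2 at an unadjusted p under 0.05 and 2 called by DESeq2. Sfrp5, at 0.438 and 0.375 CPM against 0.0257 and 0.0316 CPM in TAA livers, was higher (3.64), from a very low level. That call was lost with DESeq2 and without both libraries low in Malat1, where 0 of the 11 inhibitors were called. In the fit without both libraries low in Malat1, the lists of receptors, core and inhibitors had 0, 1 and 1 genes higher and 4, 0 and 1 lower in TAA livers.

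Of 28 other glutamine and ammonia genes tested, 4 were higher and 7 lower in TAA livers than in control livers, with a median of -0.56. Over all genes 10% were higher and 11% lower. Slc1a5, a glutamine transporter, was at 4.73 and 10.3 CPM in TAA livers, against 0.777 and 1.54 CPM in control livers (2.67 ± 0.44, adjusted p = 0.00189). Otc, a urea cycle enzyme, was at 131 and 110 CPM in TAA livers, against 674 and 295 CPM in control livers (-2.004 ± 0.32, adjusted p = 0.00156). Aldh4a1, which acts on the same intermediate that Oat makes, changed by -1.03, and Aldh18a1, which makes that intermediate from glutamate, by 1.52. Gls2, the liver-type glutaminase of the periportal zone, was lower at 172 and 221 CPM in TAA livers, against 536 and 378 CPM in control livers (adjusted p = 0.0172). Without both libraries low in Malat1, 1 gene of this list was higher and 2 lower. At 4 weeks without choline relative to TAA 2 of the 28 were higher and 4 lower, beside 6.47% and 8.39% of all genes. The smallest p was that of the amino acid transporter Slc1a4 (-2.08).

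Part of the genes of the opposite, periportal zone were lower as well. Of 12 genes in that list 6 were lower and none higher in TAA livers, beside 11% and 10% of all genes. The median was -0.71, with log2 changes of -0.90 for Pck1, -0.95 for Etnppl and -1.12 for Hal. Of these 12, 2 were lower without both libraries low in Malat1. At 4 weeks without choline, Pck1, a key enzyme of glucose synthesis, was at 4169 and 4413 CPM, against 1056 and 825 CPM in TAA livers (2.19 ± 0.18, adjusted p = 9.35e-05). The difference between the zones was not tested. With choline, no gene of the 7 lists passed on average over weeks by edgeR's test. Of the 26 genes of the pericentral list 4 had an unadjusted p under 0.05 and DESeq2 called 1. The receptors, the glutamine and ammonia genes and the periportal genes had 1 each at that p and the other 3 lists none. DESeq2 called 0 in those 6. It gave no adjusted p to some genes of every list but the periportal. The smallest p in the lists was that of Gstm3 (log2 change 0.84 ± 0.22, adjusted p = 0.838).

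**Figure D5:**
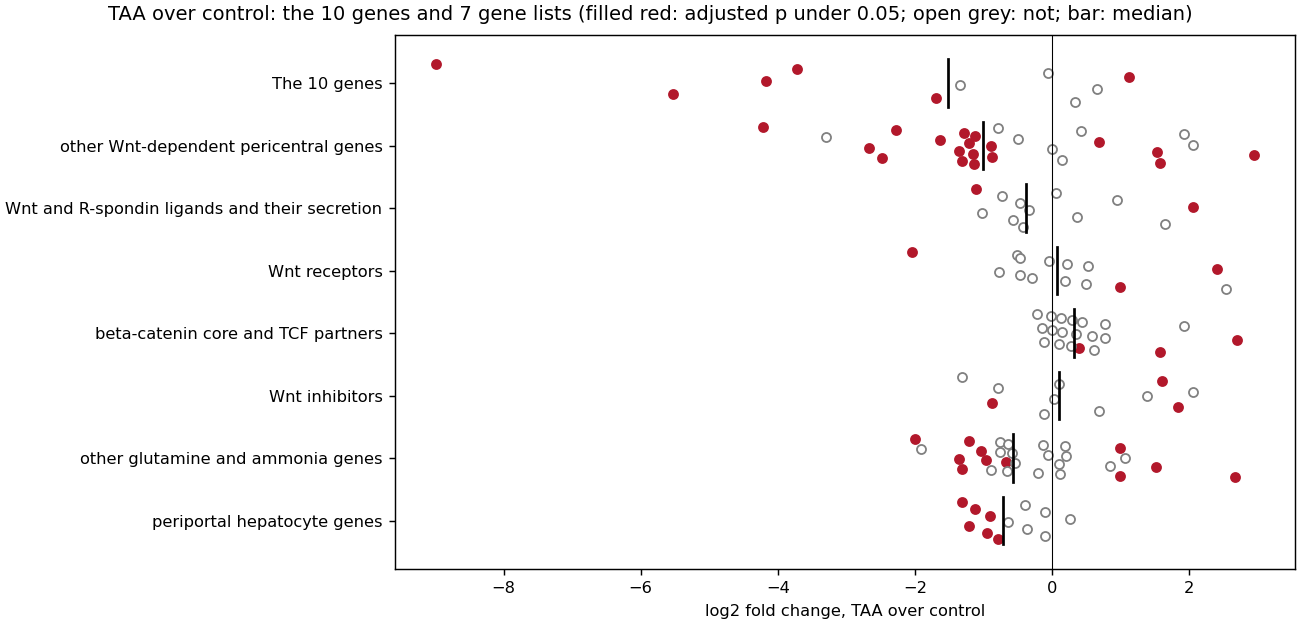
Log2 fold change, TAA over control, of the 10 genes and of 7 gene lists, with filled red points for an adjusted p under 0.05, open grey points for the rest and bars for the medians. The median is -1.51 for the 10 genes, -1.01 for the other pericentral genes and -0.71 for the periportal genes, and Slc1a2 is the point furthest to the left.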

How the data were processed

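Total RNA of liver was taken with TRIzol, depleted of ribosomal RNA and made into strand-specific libraries, per the labels' protocols. The submitters' processing notes name STAR 2.7.10b, RSEM 1.3.3, DESeq2 1.36.0 and GRCm38. No source used here gives the annotation release, the filters or the counting options. The authors deposited expected counts per gene, estimated from the reads, and a second table of TPM, scaled by length and, as the deposited values sum, to 1 fixed total per library. CPM were computed here from the counts. Of the columns, 2 in each table matched no sample and were not used. Of the count values 8.66% were not whole, and counts were rounded.

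Genes with low counts were removed by group size (filterByExpr), which left 17292. Libraries were scaled by TMM. All 16 libraries entered 1 edgeR 4.0.16 quasi-likelihood fit (R 4.3.3) with a mean per group and 8 residual degrees of freedom. Tests are two-sided, with Benjamini-Hochberg adjustment over the 17292 genes, and a gene was called at an adjusted p under 0.05. Intervals are 95% intervals of the fit. The script was tested on simulated data. Alternatives were DESeq2 1.42.0, other scaling, no filter, a replicate block, the compared groups alone, each library left out, and both libraries low in Malat1 left out. The effect on the list counts of DESeq2 and of leaving out those libraries was added after seeing the data. Genes to which DESeq2 gave no adjusted p count as not called and stay in the total of the shares. Replicates of a group differed by more than sampling noise. Of the 8 hepatocyte markers 1 was not analysed here.

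The 10 genes, the gene lists and the tests were chosen with earlier results of these data known. Besides the 10 genes, up to 4 genes with the smallest p in TAA against control were named from each list, up to 2 in 4 weeks without choline against TAA and in the choline mean, and the 5 genes most like Glul. Of the genes this rule names, 1 is not reported here. Promoters were taken from RefSeq (GRCm38.p6).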

Additional observations from a re-analysis of the deposited data

How the results depend on the processing

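Across 2990 values of single genes under the alternatives, 2831 kept their side of the threshold, 86 lost a call and 73 gained one. No value called in the main fit or in an alternative had the opposite sign in the other. Values without a call could change sign. That of Rnf43 in TAA against control was -0.05 in the main fit and -0.49 to 0.27 over single omissions. Of the 10 genes, 6 were called in TAA against control and 2 when the compared groups were fitted alone, and 4 to 8 when each library was left out. For 1 week without choline against TAA, where 0 were called, no filter gave 5, DESeq2 gave 6 and leaving out a library gave 0 to 3. For 2 and for 4 weeks against TAA, with 4 called in each, leaving out a library gave 3 to 5. For 1 week against control, with 6 called, leaving out both libraries low in Malat1 gave 2, the compared groups alone 0 and single omissions 2 to 7. For 2 weeks against control, with 1 called, these gave 5 with no filter, 0 with the compared groups alone, 4 with DESeq2 and 1 to 6 with single omissions. For 4 weeks against control, with 2 called, no filter gave 6, the replicate block 4, leaving out both libraries low in Malat1 1, the compared groups alone 0, DESeq2 4 and single omissions 1 to 5. For choline at 2 weeks no filter gave 1, Slc1a2, against 0, and single omissions gave 0 in every choline comparison. For week 2 over week 1, with 2 called, library totals gave 1, no filter 6, DESeq2 4 and single omissions 1 to 2. For week 4 over week 2, with 1 called, library totals gave 0, leaving out both libraries low in Malat1 2, the compared groups alone 2, DESeq2 2 and single omissions 0 to 2. The cause of these moves was not tested. Fits of the compared groups alone and those with omissions also held fewer libraries.

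The counts over all genes moved with those of the 10. In 1 week against TAA 648 genes were called, 1645 with no filter and 1465 by DESeq2. In 2 weeks against control 69 were called, 2677 with no filter and 1517 by DESeq2, and in 4 weeks against control 3368, 5042 and 4595. In week 2 over week 1 it was 10, 361 and 171, and in choline at 2 weeks 0, 55 and 0. With the compared groups alone, 16 genes were called in TAA against control and 0 in each of the recovery groups against control. With single libraries left out, 1918 to 8141 genes were called in TAA against control (3636 with all), 13 to 8660 in 1 week against control (736), 3 to 7958 in 2 weeks against control (69) and 94 to 9044 in 4 weeks against control (3368). The replicate numbers pair nothing in the labels. Deviations of same-numbered libraries correlated between -0.186 and 0.584 over 28 pairs of groups, and above 0.1 in 8. The block changed the count as given for 4 weeks against control, where Axin2 and Znrf3 were gained, and gave 7 in place of 6 for TAA against control, where Znrf3 was gained. Library totals without scaling shifted the median log2 change of all genes in TAA against control to 0.59, from 0.03 with TMM.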
